A study of Mus musculus with 10 samples.

Results

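A set of 7 genes of the tetraspanin family, Cd81, Cd9, Cd37, Cd53, Cd63, Cd82 and Cd151, were followed by RNA sequencing in spleen T cells and in spleen type 2 conventional dendritic cells (cDC2s). These 7 stand among the 45706 genes in the deposited table and among the 31 tetraspanin genes listed. The genes were taken by symbol. Cd81 was chosen because its values were higher in T cells and lower in cDC2s of Cd47ΔT mice, so its genotype differences are a description without a test, and the other 6 were listed as its family. The study's title concerns CD47, survival of T cells in the periphery and their necroptosis driven by dendritic cells. All cells came from the spleen of Mus musculus. Control mice were Cd47f/f, with floxed Cd47 alleles, and were compared with Cd47ΔT mice, a name that stands for deletion of Cd47 in T cells. There were 2 libraries of each genotype for T cells and 3 of each genotype for cDC2s. The sources used here do not give the Cre driver of the deletion, the age of the mice, the way the cells were isolated or whether replicates came from separate mice. The p-values therefore reflect the spread between libraries alone, and that spread may be technical.

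Tetraspanins are small membrane proteins that cross the membrane several times and organise other surface proteins into patches called tetraspanin-enriched microdomains. They bind integrins, immunoglobulin superfamily members and proteases laterally, and they steer partners through endosomes and onto extracellular vesicles. In lymphocytes, CD81 takes part in costimulation. CD37 and CD53 are largely restricted to leukocytes, CD63 resides mainly in late endosomes and lysosomes, and CD9, CD82 and CD151 bind integrins. CD47, the product of the targeted gene, signals through SIRP alpha on phagocytes and thereby holds back engulfment.

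The promoters of Cd81, Cd37 and Cd63 are shown because these genes had the highest and lowest genotype differences of the 7 in cDC2s. They are RefSeq sequences on GRCm38.p6, from 250 bases before the transcription start to 50 bases after it, and lie at chr7:143052500-143052799 on the plus strand, chr7:45238790-45239089 on the minus strand and chr10:128909095-128909394 on the plus strand. Capitals mark matches, on either strand, to the GC box core GGGCGG, the ETS factor core GGAAGT, the element CCAAT known from many promoters, or the TATA box form TATAAA.
Cd81: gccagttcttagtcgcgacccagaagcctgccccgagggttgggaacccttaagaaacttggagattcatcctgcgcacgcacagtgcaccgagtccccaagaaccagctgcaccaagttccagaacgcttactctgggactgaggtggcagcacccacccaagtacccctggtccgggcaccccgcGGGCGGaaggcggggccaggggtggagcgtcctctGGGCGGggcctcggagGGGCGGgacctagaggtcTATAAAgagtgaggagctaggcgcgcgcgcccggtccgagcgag
Cd37: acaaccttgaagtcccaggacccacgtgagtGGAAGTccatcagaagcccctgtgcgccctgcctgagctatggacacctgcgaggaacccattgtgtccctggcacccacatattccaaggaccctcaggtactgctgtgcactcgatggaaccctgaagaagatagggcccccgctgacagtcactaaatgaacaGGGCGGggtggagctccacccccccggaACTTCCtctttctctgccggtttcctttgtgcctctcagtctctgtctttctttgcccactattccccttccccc
Cd63: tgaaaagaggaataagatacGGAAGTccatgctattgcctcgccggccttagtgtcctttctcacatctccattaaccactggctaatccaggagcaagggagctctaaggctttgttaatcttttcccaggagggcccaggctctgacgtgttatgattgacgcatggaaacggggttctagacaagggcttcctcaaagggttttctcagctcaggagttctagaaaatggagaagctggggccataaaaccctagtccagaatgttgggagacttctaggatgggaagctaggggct
The Cd81 window held 3 copies of GGGCGG shortly before its start, and 1 TATAAA that lies within the 50 bases after the start. The Cd37 window held 1 GGGCGG and 2 copies of GGAAGT, and the Cd63 window held 1 GGAAGT and none of the other motifs. This Cd63 window lies inside the gene as placed by GENCODE M21, which starts at 128900989 on the same strand. It therefore describes an internal start. Of 32851 promoters of the same length, 35.7% held GGGCGG, 23.8% held GGAAGT, 37.4% held CCAAT and 13.6% held TATAAA. No matches overlapped in these windows, and a match describes their letters only. All 7 genes had an entry, with 4 windows for Cd82 and 2 for Cd151.

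Values are TPM, a unit of transcript abundance that relates a gene's reads to transcript length and to the library total and keeps no depth. Cd47 itself read 138 and 233 TPM in control T cells and 40.4 and 51.7 TPM in Cd47ΔT T cells, a log2 difference of -1.95 ± 0.260 (SE, limma's adjusted p = 0.0112). Its cDC2 values were 140 to 162 TPM in controls and 135 to 159 TPM in Cd47ΔT mice. T cell markers summed to 5704 to 5780 TPM in control and 5490 to 5934 TPM in Cd47ΔT T cell libraries, and cDC2 markers to 10546 to 13397 and 9932 to 10108 TPM in the cDC2 libraries. Markers of other cell types moved with genotype in the T cell libraries. Of 57 such genes tested in the T cell libraries, 42 from 9 of 11 lists had higher values in Cd47ΔT mice by limma and 0 had lower ones. Over all genes tested there, 8.5% were called higher and 0.875% lower. Of these 57, 13 passed the filter of 1 TPM through Cd47ΔT libraries alone. Of the other 44, 31 were called, where 7.39% of all genes taken in the same way were. In cDC2s 0 of 37 were called in either direction, where 0.63% of all genes were, and 1 cDC2 marker, Cd209a, was lower. The cDC2 Cd47f/f library 3 stood apart, with correlations of 0.929 to 0.937 across genes to the other cDC2 libraries. Small non-coding RNAs took 16.1% to 21.3% of control and 21.8% to 25.2% of Cd47ΔT cDC2 libraries. Of the genes called in T cells, 90.7% were higher, against 78.2% with median-of-ratios and 66.1% with quantile scaling. In cDC2s 39.5% were higher, against 53.3% with median-of-ratios and 53.0% with protein-coding scaling. Of the differences of effects called, 94.7% were higher in T cells, against 84.4% with median-of-ratios and 78.7% with quantile scaling, and of those between control cell types 54.3%, against 44.1% with protein-coding scaling. The median log2 difference of all genes tested in T cells was 0.10, and -0.041 and -0.081 under median-of-ratios and quantile scaling.

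**Figure D1:**
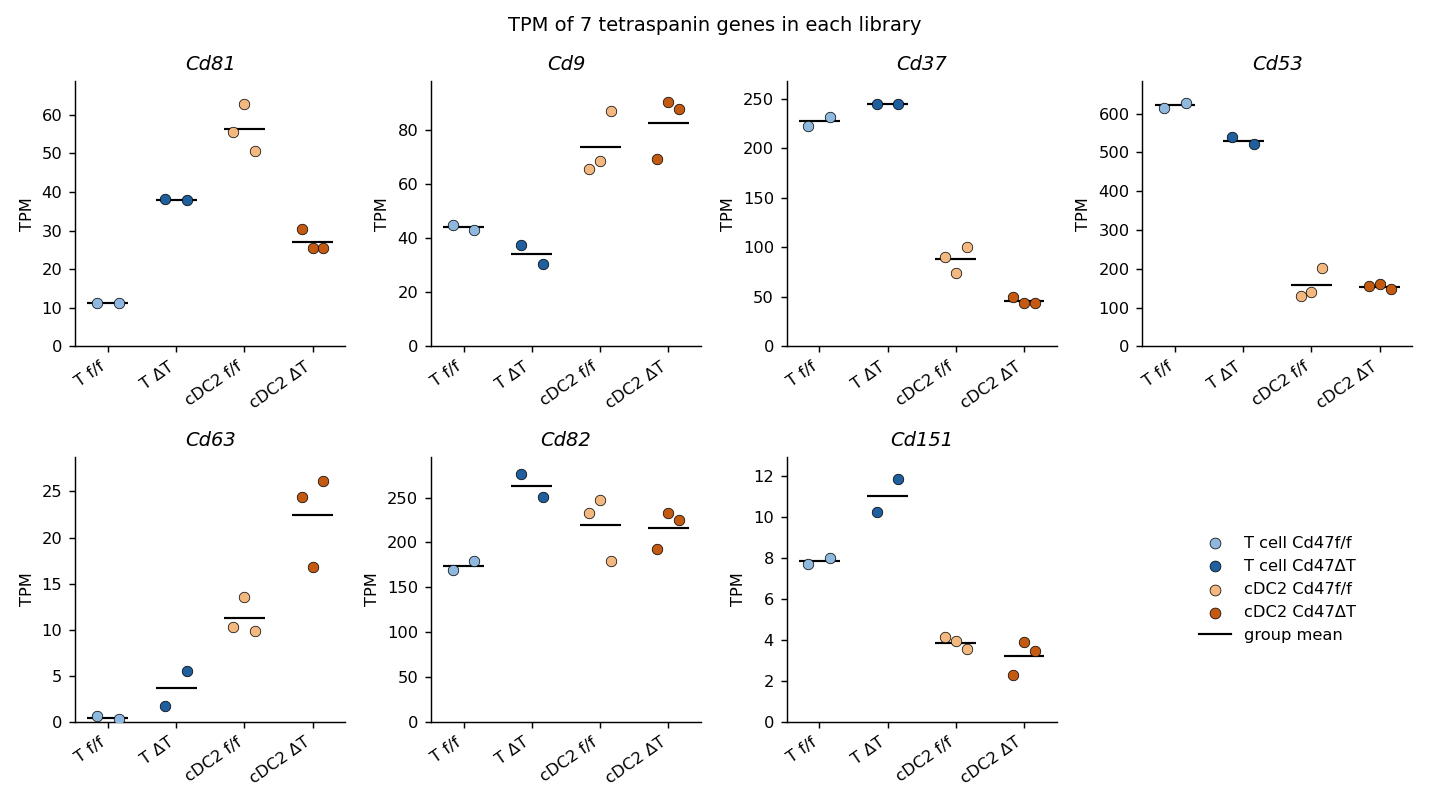
TPM (vertical axes, linear from 0) of each of the 7 genes in the 10 libraries, as points grouped by cell type and genotype, with a line at the group mean. Cd81 is high in Cd47ΔT T cells (37.9 and 38.2 TPM) and low in Cd47ΔT cDC2s (25.4 to 30.5 TPM) relative to the controls of the same cell type.

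Cd81 (ENSMUSG00000037706, chromosome 7, 143052739 to 143067934, plus strand, GRCm38) was listed at 11.2 and 11.3 TPM in T cells of control mice, and T cells of Cd47ΔT mice had 38.2 and 37.9 TPM. The 2 genotypes were far apart and replicates lay close together. In cDC2s it read 55.4, 62.9 and 50.7 TPM in controls and 30.5, 25.6 and 25.4 TPM in Cd47ΔT mice, so every control library lay above every Cd47ΔT library. On the log2(TPM + 1) scale, the Cd47ΔT minus control difference of Cd81 was 1.67 in T cells and -1.03 in cDC2s. The genotype differences of the cell types were 2.70 apart. As ratios of mean TPM these were 3.38 in T cells and 0.482 in cDC2s. The 4 groups ranked from control cDC2s (56.3 ± 6.16 TPM, SD, n = 3) through Cd47ΔT T cells (38.0 ± 0.233, n = 2) and Cd47ΔT cDC2s (27.1 ± 2.86, n = 3) to control T cells (11.2 ± 0.0212, n = 2). No neighbouring groups in this order overlapped. By TPM as deposited, Cd81 was higher in cDC2s than in T cells in controls, and higher in T cells than in cDC2s in Cd47ΔT mice. The cell types also differed in library kit. Small non-coding RNAs took 0.245% and 0.456% of the Cd47ΔT T cell libraries and 21.8% to 25.2% of the Cd47ΔT cDC2 libraries. The order of the 4 groups was not recomputed without these RNAs. In bulk samples such as these, more cells that express a gene and more RNA per cell cannot be told apart.

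Against the markers that moved in the same T cell libraries, several values stand beside the Cd81 level. Macrophage and monocyte markers summed to 612 to 760 TPM in control and 1845 to 1965 TPM in Cd47ΔT T cells, and 10 of 10 were called higher, 3 of which passed the filter through Cd47ΔT libraries alone. Most of that sum was Ly6c2, a surface antigen that activated T cells also carry, and without it the other 9 genes summed to 17.02 to 21.6 and 139 to 227 TPM. B cell markers summed to 15.6 to 17.5 and 55.9 to 130 TPM, with 5 of 6 tested higher, 3 of which passed the filter in that way. The cDC2 markers summed to 160 to 186 and 350 to 462 TPM, of which Cd7, also a T cell gene, made 144 to 165 and 246 to 281. Of 8 cDC2 markers tested, 7 were called higher, 1 of which passed the filter through Cd47ΔT libraries alone. Among the 7 were H2-Ab1, an MHC class II gene, at 6.03 and 7.48 TPM in control and 58.4 and 113 TPM in Cd47ΔT T cells, and Sirpa, the CD47 receptor gene, at 1.91 and 2.78 and at 15.6 and 28.3 TPM. Cd209a stood at 0.47 and 1.09 and at 6.12 and 9.52 TPM, and Itgax at 0.89 and 2.08 and at 5.48 and 9.92 TPM. The 3 not tested were low in both genotypes, with Zbtb46 at up to 1.12 TPM, Esam at up to 0.43 TPM and Clec4a4 at 0 in both controls and 0.13 and 0.28 TPM in Cd47ΔT T cells. NK cell markers summed to 80.0 to 115 and 238 to 371 TPM, with 5 of 7 called higher. Within that sum Prf1 averaged 40.8 and 53.15, Eomes 35.4 and 57.5 and Gzma 15.25 and 121 TPM. Plasma cell markers summed to 100 to 118 and 416 to 452 TPM, of which Jchain made 57.0 to 64.3 and 309 to 345. Neutrophil markers summed to 1.95 to 5.44 and 27.1 to 91.3 TPM. The megakaryocyte and platelet sums were lower in Cd47ΔT (22.6 to 30.2 and 16.03 to 17.9 TPM) through Itgb3, which averaged 25.65 and 14.3 TPM. The stroma and endothelium sums were lower (89.5 to 97.5 and 68.4 to 70.0 TPM) through Pecam1, which averaged 93.0 and 67.9 TPM. The other genes of both lists rose on average or stayed at 0. All of them but Itga2b (0.67 and 1.99 TPM on average) stayed under 1 TPM. The part of these cell types in the Cd81 difference was not tested. In cDC2 libraries B cell markers summed to 34.8 to 40.2 TPM in controls and 35.9 to 41.0 TPM in Cd47ΔT mice, with Cd79a at 0 to 0.27 TPM. T cell markers summed to 16.03 to 23.8 and 19.8 to 24 TPM there, with Cd3g at 0 in every library. Macrophage markers summed to 217 to 292 and 174 to 242 TPM, and 0 of 9 tested were called by limma. The members went both ways, with Adgre1 at 84.4 and 52.3 TPM on average in control and Cd47ΔT cDC2s, C1qa at 19.04 and 22.8, C1qb at 27.3 and 35.3 and Fcgr1 at 0.45 and 2.49 TPM. Their part in the Cd81 difference in cDC2s was not tested.

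**Figure D2:**
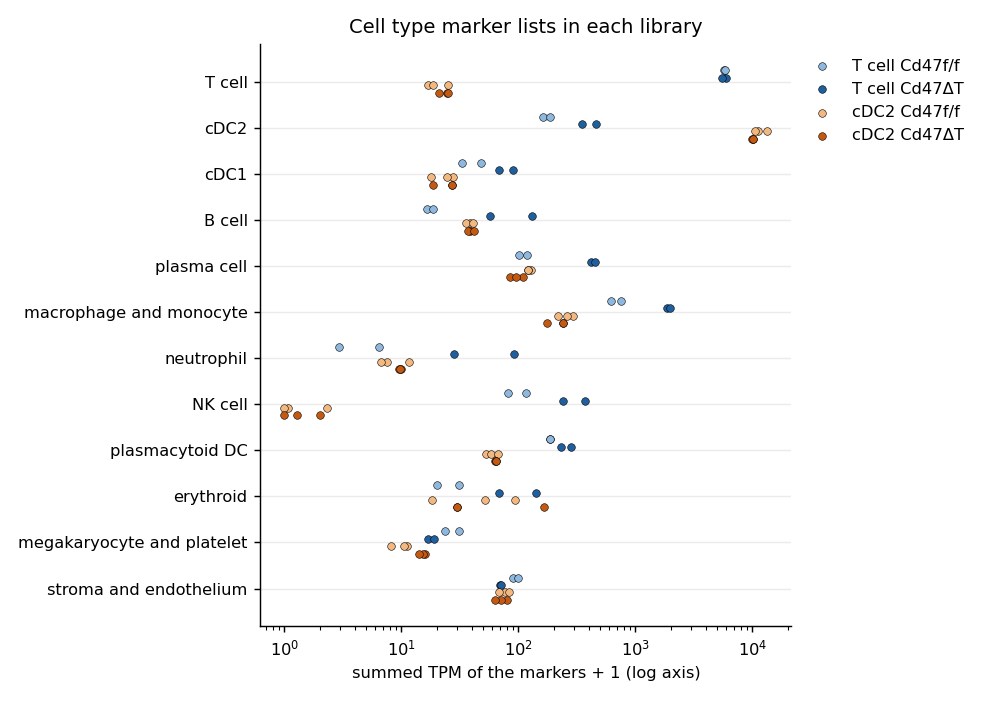
Summed TPM plus 1 (horizontal log axis) of each cell type marker list (vertical axis) in every library, 1 point per library, coloured by group. In T cells the B cell, macrophage and monocyte, neutrophil, NK cell and plasma cell sums of both Cd47ΔT libraries lie above both controls. The megakaryocyte and platelet sums (mostly Itgb3) and the stroma and endothelium sums (mostly Pecam1) of both lie below both controls. In cDC2s the T cell and B cell sums of the genotypes overlap.

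The other 6 genes were tested. In T cells 1 of 6 was called at an adjusted p under 0.05, where 9.37% of 12453 genes were called (8.5% higher and 0.875% lower). All 6 had genotypes that did not overlap, as did 48.9% of all genes in this comparison of 2 against 2 libraries. Cd63 passed the filter in T cells through its Cd47ΔT libraries alone, so its lack of overlap was set by the filter. The shares over all genes include 608 genes that entered through 1 genotype alone. Of the other 5 members 1 was called, where 7.39% of genes taken in the same way were. The median log2 difference of the other 5 was 0.11, against 0.089 over the 11845 genes that did not enter through 1 genotype alone. In cDC2s 1 of 6 was called, where 0.63% of 12058 genes were called (0.249% higher and 0.381% lower). There 2 of 6 did not overlap between genotypes, against 19.9% of all genes, and the median was -0.0076, against -0.073 over all genes.

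Cd82, which binds integrins and is known from tumour biology as a suppressor of metastasis, was the gene called in T cells. Cd82 (ENSMUSG00000027215, chromosome 2, 93419111 to 93463140, minus strand) rose from 169 and 179 TPM in control to 276 and 251 TPM in Cd47ΔT T cells (log2 difference 0.59 ± 0.108, limma's adjusted p = 0.0251). The call was lost with median-of-ratios scaling (adjusted p = 0.0876), without filter (0.0872), and without Cd47ΔT library 1 (0.351) or 2 (0.0994). In cDC2s Cd82 read 233, 247 and 179 TPM in controls and 193, 232 and 225 TPM in Cd47ΔT mice. These groups overlapped (log2 difference -0.012 ± 0.140, limma's adjusted p = 0.982), and other scalings turned the sign. The Cd82 difference between the cell types' genotype effects was 0.61 ± 0.205 (adjusted p = 0.135 by limma's interaction test) and passed only without cDC2 Cd47f/f library 3, the library that stood apart (0.74, adjusted p = 0.0268).

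Cd37, a leukocyte tetraspanin that restrains T cell proliferation and shapes antigen presentation, was the gene called in cDC2s. Cd37 (ENSMUSG00000030798, chromosome 7, 45233632 to 45239115, minus strand) read 89.8, 74.0 and 100 TPM in control and 49.6, 43.4 and 43.4 TPM in Cd47ΔT cDC2s. Every Cd47ΔT library lay below every control, and Cd37 fell by 0.93 ± 0.136 on the log2 scale (limma's adjusted p = 0.0356). The call was lost without filter (0.0763), with the replicate block (0.0854) and without any 1 of the 6 libraries (adjusted p of 0.0537 to 0.136), while the log2 difference stayed between -1.05 and -0.83. In T cells Cd37 read 222 and 232 TPM in controls and 245 and 245 TPM in Cd47ΔT mice (log2 difference 0.11 ± 0.0985, adjusted p = 0.653 by limma), and its sign turned with median-of-ratios (-0.047) and quantile scaling. The genotype effect on Cd37 differed between the cell types by 1.04 ± 0.196 (limma's interaction test, adjusted p = 0.00826), where 5.7% of 10650 genes were called (5.4% with a higher and 0.3% with a lower effect in T cells). Cd37 was the 1 gene of the 6 called there. Without Cd47ΔT T cell library 1 or 2 the adjusted p was 0.0555 or 0.0607.

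Cd63, a tetraspanin of late endosomes, lysosomes and exosomes, was listed at 0.64 and 0.29 TPM in control T cells and at 1.77 and 5.58 TPM in Cd47ΔT T cells. It passed the filter in T cells only through the Cd47ΔT libraries. The replicates of that group differed by more than 3-fold. The log2 difference of 1.55 ± 0.426 was called only with the replicate block. No p-value is given for it because of how the gene passed the filter. In cDC2s Cd63 (ENSMUSG00000025351, chromosome 10, 128900989 to 128912822, plus strand) read 10.3, 13.5 and 9.82 TPM in controls and 24.4, 16.8 and 26.1 TPM in Cd47ΔT mice. All 3 Cd47ΔT values were above all 3 controls, with a log2 difference of 0.93 ± 0.215 (limma's adjusted p = 0.121). The macrophage, neutrophil and B cell markers described beside Cd81 moved with the Cd63 values in T cells, and their part was not tested. The Cd63 effects differed by 0.63 ± 0.489 between cell types (-0.12 with a pseudocount of 5), and this difference was not called.

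Cd53, a leukocyte tetraspanin that supports adhesion and stabilises receptors on lymphocytes, was the most abundant of the 7 in T cells. Cd53 (ENSMUSG00000040747, chromosome 3, 106759921 to 106790149, minus strand) read 615 and 627 TPM in control and 539 and 522 TPM in Cd47ΔT T cells (log2 difference -0.23 ± 0.0898, limma's adjusted p = 0.212). It passed with quantile scaling (-0.35, adjusted p = 0.0395). In cDC2s Cd53 read 131, 139 and 202 TPM in controls and 155, 160 and 147 TPM in Cd47ΔT mice. These groups overlapped, and the highest control was the library that stood apart.

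Cd9, a close relative of Cd81 and a partner of integrins, had differences of the opposite sign to Cd81 in both cell types, neither of which passed the test. Cd9 (ENSMUSG00000030342, chromosome 6, 125460266 to 125494791, minus strand) read 44.9 and 43.2 TPM in control and 37.5 and 30.5 TPM in Cd47ΔT T cells (log2 difference -0.37 ± 0.157, limma's adjusted p = 0.242). In cDC2s it read 65.7, 68.7 and 87.1 TPM in controls and 69.4, 90.5 and 87.9 TPM in Cd47ΔT mice (0.16 ± 0.152, adjusted p = 0.701), with overlapping groups. In control T cells Cd9 was above Cd81 (44.0 against 11.2 TPM), and in Cd47ΔT T cells both Cd81 values lay above both Cd9 values (38.0 against 33.99 TPM on average). In cDC2s Cd9 exceeded Cd81 in each genotype, at 73.8 against 56.3 TPM in controls and 82.6 against 27.1 TPM in Cd47ΔT mice.

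Cd151, which binds laminin-binding integrins, was low in all groups. Cd151 (ENSMUSG00000025510, chromosome 7, 141467392 to 141471473, plus strand) read 7.72 and 7.99 TPM in control and 10.2 and 11.9 TPM in Cd47ΔT T cells (log2 difference 0.44 ± 0.192, limma's adjusted p = 0.258). In cDC2s it read 4.14, 3.94 and 3.54 TPM in controls and 2.28, 3.91 and 3.48 TPM in Cd47ΔT mice, with overlapping groups.

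**Figure D3:**
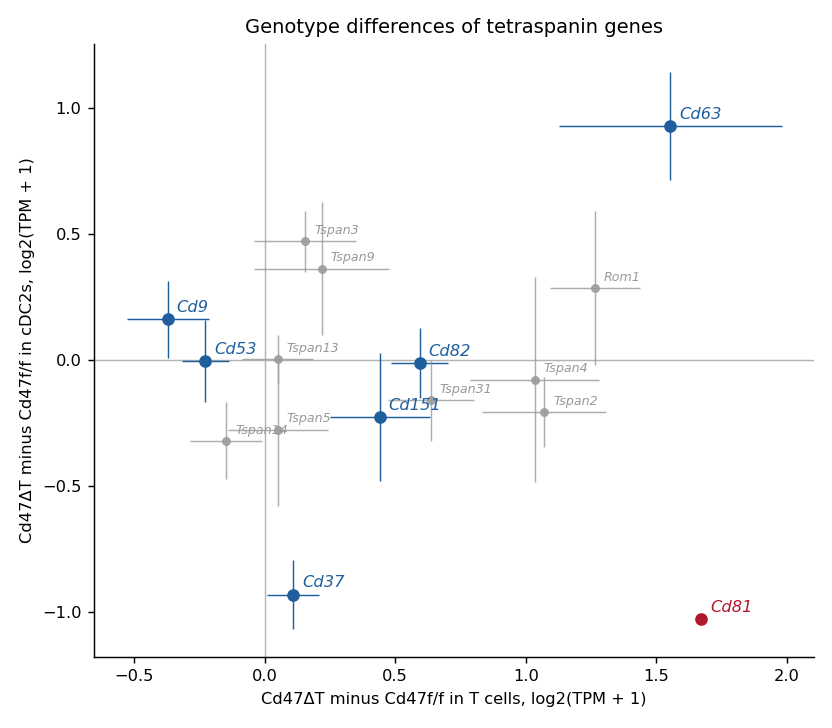
Cd47ΔT minus Cd47f/f differences on the log2(TPM + 1) scale in T cells (horizontal) and cDC2s (vertical) for the tetraspanin genes tested in both, with the 7 genes in red (Cd81) and blue, other members in grey and bars of 1 SE from limma (none for Cd81, which was chosen for these differences). Cd81 lies at 1.67 and -1.03, Cd37 at 0.11 and -0.93 and Cd63 at 1.55 and 0.93.

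The 7 genes together held a similar amount of T cell RNA in both genotypes, 1071 to 1100 TPM in control and 1103 to 1148 TPM in Cd47ΔT libraries. Within that sum, the share of Cd53 was 57.2% ± 0.333 in control and 47.1% ± 0.233 in Cd47ΔT T cells (SD, n = 2), that of Cd82 was 16.03% ± 0.342 and 23.4% ± 0.929, and that of Cd81 was 1.04% ± 0.0174 and 3.38% ± 0.0747. In cDC2s the sum was 589 to 633 TPM in controls and 524 to 573 TPM in Cd47ΔT mice, and the share of Cd81 was 9.25% ± 1.17 and 4.95% ± 0.754 (SD, n = 3). TPM are scaled by transcript length, so levels can be ranked between genes. In control T cells the order was Cd53, Cd37, Cd82, Cd9, Cd81, Cd151 and Cd63, with no overlap between neighbours. In Cd47ΔT T cells Cd82 stood above Cd37 and Cd81 above Cd9, again without overlap. In control cDC2s Cd82 led, its range overlapping that of Cd53, followed by Cd37 and Cd9, which overlapped, and then Cd81, Cd63 and Cd151. In Cd47ΔT cDC2s Cd9 was above Cd37, and the ranges of Cd81 and Cd63 overlapped.

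Control T cells and control cDC2s were compared to place the genes by cell type. T cell libraries were made with TruSeq stranded mRNA kits from RNeasy mini RNA and cDC2 libraries with SMART-seq stranded kits from RNeasy micro RNA, so cell type and kit cannot be told apart. Cd81 was chosen with these control values in view, so it is given without a test. By limma's adjusted p, 5 of the other 6 genes were called, where 62.3% of 13861 genes were called (33.9% higher and 28.5% lower in T cells). All 7 had no overlap between the groups, as did 73.3% of all genes. Both counts include Cd63, which passed the filter through 1 group alone. Its call and its lack of overlap are therefore not read as results. The 7 also include Cd81, which was chosen. Of the 5 genes without Cd63 and Cd81, 3 were called higher and 1 lower in T cells. Of all 10871 genes taken in the same way, 57.2% were called (3567 higher and 2655 lower). Cd53 (log2 difference 2.001 ± 0.162, adjusted p = 4.1e-06), Cd37 (1.37 ± 0.132, adjusted p = 1.47e-05) and Cd151 (0.86 ± 0.215, adjusted p = 0.00634) were higher in T cells by limma. Cd9 (-0.72 ± 0.168, adjusted p = 0.00437) was lower in T cells by limma. The Cd63 difference was -3.06 ± 0.358 and is given without a test, because of how this gene passed the filter. The Cd81 difference was -2.22. Cd82 did not pass (-0.32 ± 0.145, adjusted p = 0.0797 by limma), except with protein-coding scaling (adjusted p = 0.0107) or without cDC2 Cd47f/f library 3 (adjusted p = 0.00824). The calls of Cd53, Cd37, Cd151 and Cd9 held under all 18 alternatives run.

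The remaining 24 tetraspanin genes gave the family's context. The 7 genes made up 75.2% of the family's TPM in control T cells and 55.9% in control cDC2s. The most abundant of the 24 in T cells were Tspan32 (113 ± 1.12 TPM in controls and 85.6 ± 12.3 in Cd47ΔT), a haematopoietic member also called TSSC6, Tspan13 (90.1 ± 4.79 and 93.6 ± 11.8) and Tspan14 (73.3 ± 9.02 and 65.8 ± 0.679, SD, n = 2), which guides the protease ADAM10. In cDC2s they were Tspan13 (277 ± 20.4 and 278 ± 19.8 TPM), Tspan3 (47.2 ± 4.77 and 65.8 ± 5.78) and Tspan9 (40.1 ± 5.79 and 53.8 ± 18.3, SD, n = 3). In T cells 2 of 12 tested were called, both higher, where 8.5% of all genes were called higher. Tspan2 and Tspan17 passed the filter there through Cd47ΔT libraries alone, and of the other 10, 1 was called, where 7.39% of all genes taken in the same way were called. Rom1, a tetraspanin of photoreceptor discs, rose from 9.20 and 9.75 to 22.7 and 25.8 TPM (1.26 ± 0.174, limma's adjusted p = 0.0118). Tspan2, which entered the test only because its Cd47ΔT values were above 1 TPM, read 0.19 and 0.47 TPM in controls and 1.70 and 1.86 TPM in Cd47ΔT T cells. Its log2 difference of 1.07 is therefore given without a test. The Tspan2 call is in the count of 2 and was lost in 5 of 9 alternatives. In cDC2s 0 of 10 tested were called by limma, with 2 at an unadjusted p under 0.05. The median of the 10 in T cells that did not enter through 1 genotype alone was 0.10, against 0.089 over all such genes, and that of the 10 in cDC2s was -0.037, against -0.073 over all genes tested.

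**Figure D4:**
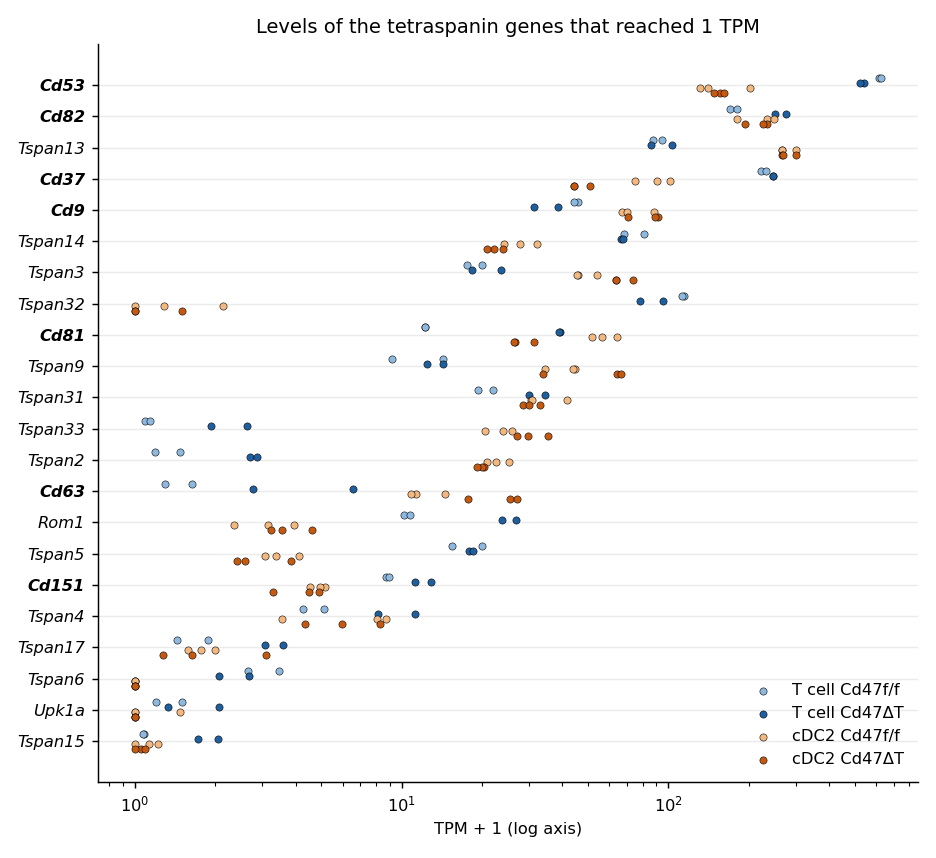
TPM plus 1 (horizontal log axis) of the tetraspanin genes that reached 1 TPM in any library (vertical axis, ordered by mean, the 7 genes in bold), 1 point per library, coloured by group. Cd53 is highest in T cells and Tspan32 is present in T cells (76.9 to 113 TPM) and near 0 in cDC2s.

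Proteins that tetraspanins bind or carry were read from a list of 21 genes. In T cells 19 were tested, 5 were called higher and 2 lower, where 8.5% of all genes were called higher and 0.875% lower. Of the 5, 3 passed the filter through Cd47ΔT libraries alone, and of the other 16 genes 2 were called higher and 2 lower. Of all 11845 genes taken in the same way, 777 were called higher and 98 lower (7.39% in either direction). Vcam1, an adhesion molecule of stroma and macrophages, rose from 2.80 and 4.32 to 25.4 and 40.2 TPM (2.88 ± 0.289, limma's adjusted p = 0.00559). Cd44, the hyaluronan receptor that is high on memory T cells, rose from 20.4 and 29.9 to 57.3 and 58.5 TPM (1.199 ± 0.201, limma's adjusted p = 0.0191). The myeloid receptor genes Clec7a (0.67 and 6.69 TPM on average in control and Cd47ΔT T cells) and Cd36 (0.26 and 2.68 TPM) are in the count of 5. Both are among the 3 that passed the filter through Cd47ΔT libraries alone, so they are given without a test. Vcam1 belongs to the macrophage list. Cd4 fell from 170 and 190 to 108 and 60.2 TPM (-1.15 ± 0.263, limma's adjusted p = 0.0481) and Itga6, the laminin receptor subunit bound by CD151, from 64.6 and 94.7 to 42.0 and 43.5 TPM (-0.86 ± 0.197, limma's adjusted p = 0.0484). The T cell call of Cd4 was lost in 8 of 12 alternatives (limma's adjusted p of 0.0517 to 0.169), among them those without control library 1 or 2 or Cd47ΔT library 2 (0.0666 to 0.104) and those with median-of-ratios (0.0517) and quantile scaling (0.0571). That of Itga6 was lost in 5 of 12 (0.0503 to 0.147 by limma), among them the one without Cd47ΔT library 1. That of Cd36 was lost in 3 of 9, among them the one without control library 1. In cDC2s 17 were tested and 1 was lower, where 0.381% of all genes were. Cd4, which splenic cDC2s also carry, fell from 150, 161 and 187 to 90.8, 86.9 and 77.5 TPM (-0.96 ± 0.116, limma's adjusted p = 0.0203), and was not called with the replicate block (0.0854) or without any 1 of the 6 libraries (0.0570 to 0.0850). Of 18 late endosome and vesicle genes, the machinery of the compartment in which CD63 resides, 16 were tested in each cell type and 0 were called by limma, with 1 at an unadjusted p under 0.05 in each.

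Near Cd81, 5 protein-coding genes start within 100 kb of its start. Tspan32, also a tetraspanin, lies upstream on the same strand with a gap of 33.1 kb, and its log2 difference in T cells was -0.40 ± 0.138 (limma's adjusted p = 0.151). Tssc4, a spliceosome assembly factor gene that starts 16510 bp downstream, read 22.8 and 23.8 TPM in control and 24.6 and 26.2 TPM in Cd47ΔT T cells (0.12 ± 0.150, limma's adjusted p = 0.777). In cDC2s Tssc4 read 10.2 to 19.7 and 11.9 to 17.8 TPM (0.17 ± 0.267, limma's adjusted p = 0.828). The channel genes Trpm5 and Kcnq1 and the transcription factor gene Ascl2 were at or near 0 in most libraries. Both Cd151 and Cd82 have another tetraspanin close by, with Tspan4 3.77 kb from Cd151 and Tspan18 84.6 kb from Cd82. R74862 overlaps Cd81 and reached 0.86 TPM, Gm28809 overlaps Cd9 and reached 12.5 TPM, and Gm10804 overlaps Cd82 and reached 1.33 TPM, all on the opposite strand. How strand was handled in counting is not stated, so reads of such pairs may be assigned to either gene.

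The genes whose profiles were most like that of Cd81 were read over the 10 libraries, as Pearson r of log2(TPM + 1) after each cell type's mean was subtracted, among 7854 protein-coding genes. These r are a description, since Cd81 was chosen for its pattern and the 10 points share libraries and genotypes. Plac8 (r = 0.97), a small cysteine-rich protein gene of leukocytes, stood at 126 ± 3.32 and 502 ± 10.4 TPM in control and Cd47ΔT T cells and at 243 ± 5.71 and 145 ± 19.6 TPM in control and Cd47ΔT cDC2s. Tor3a (r = 0.97), a torsin ATPase gene, stood at 11.7 ± 0.233 and 20.3 ± 0.332 TPM in T cells and at 41.1 ± 5.13 and 25.9 ± 0.906 TPM in cDC2s. Anxa1 (r = 0.95), which encodes the anti-inflammatory annexin A1, stood at 2.94 ± 0.721 and 15.99 ± 6.52 TPM in T cells and at 56.5 ± 10.04 and 23.0 ± 4.39 TPM in cDC2s. The signalling adaptor gene Sh3bp2 (r = 0.94) and Cd22 (r = 0.94), a sialic acid receptor of B cells and dendritic cells, completed the set. Within the family r with Cd81 was 0.73 for Tspan31, 0.68 for Cd82 and 0.62 for Cd37, and -0.73 for Cd9 and -0.39 for Cd53.

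**Figure D5:**
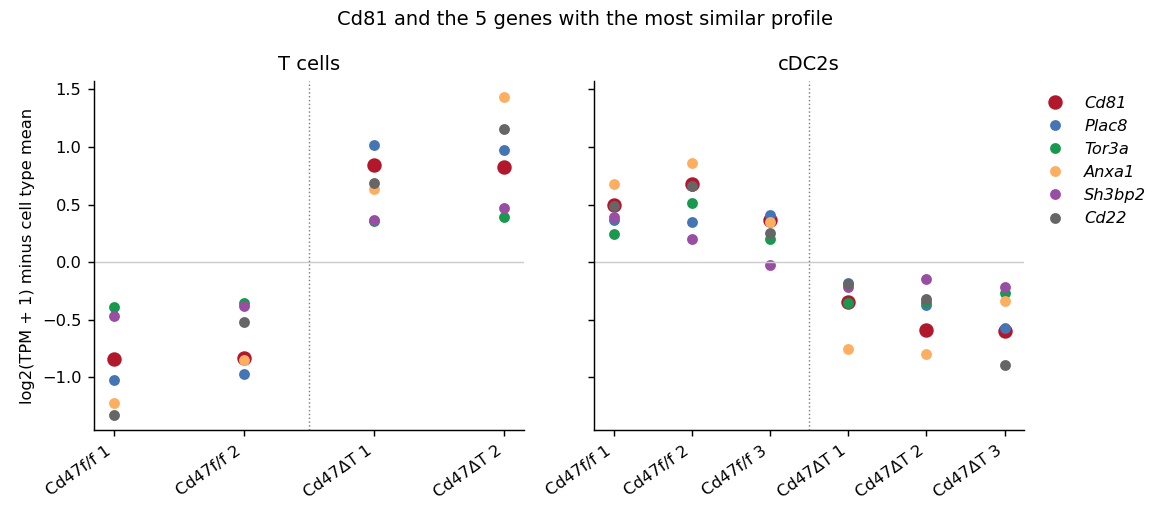
Log2(TPM + 1) minus the mean of the cell type (vertical axis) of Cd81 and the 5 genes with the highest r, in each T cell (left) and cDC2 (right) library. Points of all 6 genes lie above the mean in Cd47ΔT T cells and below it in Cd47ΔT cDC2s.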

How the data were processed

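The authors deposited TPM values of 45706 Ensembl genes for the 4 T cell and 6 cDC2 libraries, with a sum of about 1000000 in each. The GRCm38 build and the tools STAR, RSEM and DESeq2 are named without versions, per the submitters' processing notes. Depth is unknown, since TPM do not keep it, and no counting interval is given. GENCODE M21 gave symbols and positions for 45143 identifiers (98.8%). Genes were tested where at least 2 T cell or 3 cDC2 libraries reached 1 TPM, on log2(TPM + 1) with limma 3.58.1 (lmFit, eBayes with trend) in R 4.3.3, with Benjamini-Hochberg adjustment over all genes tested, two-sided, called under 0.05. Such differences understate changes of low genes. The interaction used genes passing both filters, and the control comparison those passing either, in 1 fit of all libraries. Genes that passed through 1 genotype alone were counted apart. The fits were tested on simulated data. The members, gene lists and marker lists were chosen with earlier results of these data known. Named were the 7 genes, Cd47, up to 4 called genes per list and direction with the smallest p, the 3 most abundant other tetraspanins per cell type, the 5 genes most like Cd81 (mean of at least 5 TPM in each cell type) and genes starting within 100 kb of it. A gene in the partner count is not reported here. Alternatives were other pseudocounts, filters, scalings, the replicate block and leaving out each library. Replicate numbers were not taken to pair libraries: deviations of same-numbered libraries correlated at 0.19 in T cells and -0.04, 0.06 and 0.12 in cDC2s. Other steps used pandas 2.3.3 and numpy 2.4.6 under Python 3.11.15, with matplotlib 3.10.9 for figures.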

Additional observations from a re-analysis of the deposited data

Results flagged for a closer look

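These genes stand out because their genotype effect differed between T cells and cDC2s. The difference is the T cell minus the cDC2 effect on the log2(TPM + 1) scale, with limma's adjusted p of the interaction where it was tested. For Cd81 it was 2.70, with both T cell libraries of Cd47ΔT mice above both controls and all 3 cDC2 libraries below all 3 controls, and this difference was not tested because Cd81 was chosen for it. Cd37 differed by 1.04 (adjusted p = 0.00826 by limma). Of 16 tetraspanin partners tested, 4 were called in the interaction with a higher effect in T cells, where 5.4% of all genes were. Both figures include genes that passed the T cell filter through Cd47ΔT libraries alone, so the direction of the 4 is not read as a result. Among the partners named here, Vcam1 differed by 3.50 (adjusted p = 0.00341 by limma) and Cd44 by 1.60 (adjusted p = 0.00185 by limma). The partner Clec7a, which is in the count of 4, differed by 1.80 (0.66 to 2.79 over the alternatives). Tspan2 differed by 1.28 (0.52 to 2.42 over the alternatives). Clec7a and Tspan2 passed the T cell filter through Cd47ΔT libraries alone, so their T cell effects had to be positive. Their differences are therefore given as values without a test. The targeted gene Cd47 differed by -1.94 (adjusted p = 0.00175 by limma).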

How the results depend on the processing

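Depth is unknown for TPM, and 2 or 3 libraries per group limit the precision. The number of genes called in T cells, 1167, was 15 without filter, 758 with a filter of 5 TPM and 2296 with the replicate block, and 738 to 1890 without 1 library (738 or 744 without a Cd47ΔT and 1890 without the second control library). In cDC2s 76 became 6 without filter, 4 with the replicate block and 0 to 15 without 1 library. For the difference of effects 607 became 395 with a filter of 5 TPM, 380 with quantile scaling and 214 to 613 without 1 library. A T cell group reduced to 1 library borrows the spread of the other genotype. Of the 6 tetraspanins tested, 1 was called in T cells, but 0 without filter or with median-of-ratios scaling, 2 with quantile scaling (Cd53 added) or the replicate block (Cd63 added), and 0 to 1 without 1 library. The 1 called in cDC2s became 0 without filter, with the replicate block and without each library (0 to 0), and the 1 in the interaction became 0 to 2. The replicate block leaves 1 residual degree of freedom in T cells, so its p-values rest on spread pooled over genes. Signs turned in cDC2s under quantile, median-of-ratios and protein-coding scaling for Cd53 (0.058, 0.077 and 0.063), Cd82 (0.026, 0.069 and 0.055) and Cd47 (0.067, 0.078 and 0.065), and without 1 library Cd53 ranged from -0.12 to 0.19, Cd82 from -0.15 to 0.079 and Cd47 from -0.054 to 0.062. In T cells Cd37 turned to -0.047 with median-of-ratios and -0.0044 with quantile scaling, and the Cd63 difference of effects to -0.12 with a pseudocount of 5. The cause of these turns was not tested. Without filter, the T cell calls of Cd47, Rom1, Tspan2, Vcam1, Clec7a, Cd36, Cd44, Cd4 and Itga6 (adjusted p of 0.0730 to 0.169 by limma) and the cDC2 call of Cd4 (0.0544) were lost. The Cd81 differences kept their sign in every alternative, at 1.41 to 1.75 in T cells and -1.11 to -0.93 in cDC2s. The likeness to Cd81 was recomputed with settings chosen after seeing the data, and r of the 5 genes stayed between 0.92 and 0.97.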
